A study of Mus musculus with 4 samples.

Results

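The 41 genes described here are interferon-stimulated genes, followed one by one through the epithelial cells of the mouse mammary gland. They were listed by symbol from the 31053 genes of the deposited count matrices, and the list was drawn up with earlier results of these libraries known. It holds 28 genes that type I interferon induces and 13 interferon-inducible GTPases. Mammary epithelial cells from 4 FVB mice gave 4 single-cell 3′ RNA libraries, 1 a mouse, all of genotype Tfap2c fl/fl / Krt5-CreERT2. The Krt5 promoter, active in basal cells of the gland, drives this inducible Cre, which enters the nucleus under 4-hydroxytamoxifen (4OHT). Daily injections of the vehicle, corn oil, went to 2 mice and of 4OHT to the other 2 from postnatal week 4, and the fourth mammary glands were taken at week 9. The controls carry the floxed alleles and the Cre as well, and no group received 4OHT without them, so the drug and the recombination it sets off cannot be told apart. The libraries carry the numbers 1 and 2 within each group, and values are given below in the order number 1, number 2.

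The 4 libraries held 3509 and 4233 cells of at least 1000 unique molecular identifiers (UMIs, each of which tags 1 captured RNA molecule) from the corn oil mice and 4670 and 5420 from the 4OHT mice, 17832 in all. Total UMI counts per library ran from 17351950 to 22017878. Cells were sorted into classes by their keratin UMIs. Basal cells (7028) had an excess of Krt5, Krt14, Krt17 and Acta2 over Krt8, Krt18 and Krt19, and luminal cells the reverse. Luminal cells with more Ly6d, Fxyd2 and Gpx3 than Wfdc18, Csn3 and Ltf were taken as hormone-sensing (1168), the rest as luminal progenitor (5629). Markers that took no part in the sorting followed these names: Trp63 lay between 64.5 and 82.5 CPM, the count per 1000000 UMIs summed over the class, in basal cells and at 2.09 CPM or less in both luminal classes, Elf5 between 115 and 179 CPM in progenitor cells and at 11.6 CPM or less in the others, and Prlr between 362 and 639 CPM in hormone-sensing cells and at 44.9 CPM or less in the others. Cells that met none of these rules, nor a gate for leukocytes, endothelial cells or fibroblasts, stayed unassigned. They numbered 564 and 658 after corn oil and 1137 and 1214 in the 4OHT libraries, and their part in the group differences was not tested. Between 16 and 36 cell barcodes were shared by any pair of libraries. Tfap2c itself, the floxed gene, was counted in basal cells at 389 and 285 CPM after corn oil and at 285 and 325 CPM with the 4OHT label, so the groups overlapped. A 3′ count can still register a transcript that lost an internal exon, so this does not test the deletion, and the groups are named by their labels throughout.

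Interferons are secreted proteins that cells release when they sense viral or misplaced nucleic acid. Type I interferon binds the receptor IFNAR1-IFNAR2, whose kinases JAK1 and TYK2 activate STAT2, which works with IRF9 at the interferon-stimulated response element (ISRE). Interferon gamma binds IFNGR1-IFNGR2, acts through JAK1 and JAK2, and induces IRF1 through the gamma-activated site (GAS). The genes switched on include sensors of viral RNA, proteins that block viral RNA or mark proteins with ISG15, and large families of GTPases that attack the vacuoles of intracellular parasites and bacteria.

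The promoters of some members carry these elements, and they are shown because the members' levels are compared by family further on. Each line gives 70 of the 250 bases before an annotated start, placed around the matches nearest to that start and so at a distance from it that differs between genes, read 5′ to 3′ on the gene's strand, from RefSeq on GRCm38.p6. Capitals mark a match to the ISRE core GAAANNGAAA or to GAS, TTCNNNGAA, on either strand, so that a match on the other strand reads TTTCNNTTTC. The first 4 genes are type I effectors and the fifth is the transcription factor IRF1.

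Isg15, chr4:156200851-156200920, minus strand: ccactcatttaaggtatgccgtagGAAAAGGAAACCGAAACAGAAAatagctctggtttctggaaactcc
Ifit1, chr19:34640764-34640833, plus strand: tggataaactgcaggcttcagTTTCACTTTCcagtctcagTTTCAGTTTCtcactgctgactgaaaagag
Ifit3, chr19:34583360-34583429, plus strand: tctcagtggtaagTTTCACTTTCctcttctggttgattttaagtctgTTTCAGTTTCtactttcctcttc
Rsad2, chr12:26456533-26456602, minus strand: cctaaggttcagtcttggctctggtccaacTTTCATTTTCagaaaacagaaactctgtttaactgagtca
Irf1, chr11:53769893-53769962, plus strand: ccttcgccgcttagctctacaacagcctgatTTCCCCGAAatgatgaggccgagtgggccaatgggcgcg

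The next 5 belong to GTPase genes. In 4 of them a GAS and an ISRE core stand 2 bases apart.

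Igtp, chr11:58199486-58199555, plus strand: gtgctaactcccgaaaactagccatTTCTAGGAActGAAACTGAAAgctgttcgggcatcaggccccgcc
Irgm2, chr11:58214877-58214946, plus strand: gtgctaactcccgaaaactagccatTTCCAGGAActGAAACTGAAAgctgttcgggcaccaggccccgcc
Tgtp1, chr11:48992290-48992359, minus strand: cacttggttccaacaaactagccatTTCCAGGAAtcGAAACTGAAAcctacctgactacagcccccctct
Tgtp2, chr11:49064249-49064318, minus strand: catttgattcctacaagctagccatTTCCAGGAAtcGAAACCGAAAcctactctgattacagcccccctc
Gbp7, chr3:142530226-142530295, plus strand: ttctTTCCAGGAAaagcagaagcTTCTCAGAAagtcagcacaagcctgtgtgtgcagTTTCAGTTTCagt

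The joined form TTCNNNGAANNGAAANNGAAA was found in 5 of the 32851 RefSeq windows of 250 bases before a start (0.0152%), and 4 of its 5 genes were the members Igtp, Irgm2, Tgtp1 and Tgtp2. The lines of these 4 genes also share the letters ctagccat directly before the GAS, so their promoters are not taken as separate cases. RefSeq windows were matched for 31 of the 41 members. An ISRE core lay in 8 of 10 GTPase windows (80.0%), in 8 of 26 windows of type I induced genes (30.8%) and in 2.98% of all windows. A GAS lay in 5 of 10 (50.0%), 4 of 26 (15.4%) and 7.02% of them in the same order. These are matches of letters, not measured binding. The windows of Irf7, Irf9, Ddx58, Ifih1, Oasl2 and Ifi47 were among those without either motif in these 250 bases.

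In basal cells the members were lower, nearly without exception, in the libraries labelled 4OHT than after corn oil. The summed level of the 28 type I induced genes was 1385 and 2219 CPM after corn oil and 741 and 463 CPM in the 4OHT libraries. The 13 GTPases together were at 468 and 587 CPM after corn oil and at 202 and 90.3 CPM in the 4OHT libraries. Neither pair of groups overlapped. Of the 40 members tested, 39 had a log2 difference below 0, and in 32 both 4OHT libraries lay below both corn oil libraries, as did 17.6% of the 10788 genes tested. The median difference of the 40 was -1.56 on the log2 scale, against -0.02 over all genes tested. Because the members were listed with this contrast known, these counts are a description of them and carry no test. In edgeR's quasi-likelihood test with Benjamini-Hochberg adjustment no gene passed an adjusted p of 0.05 (0 of 10788, 0.0%), and the smallest adjusted p of a member was 0.604. At an unadjusted p under 0.05 there were 465 genes, of which 235 (2.18% of those tested) were lower in the 4OHT libraries, and 32 of these were members. Both 4OHT libraries lay above both corn oil libraries in none of the 40 and in 13.0% of all genes. DESeq2 called 38 genes, 16 of them members. The size and the calls moved with the libraries used. Without the second corn oil library the members' median was -1.17 and 29 genes passed, 5 of them members, and without the first 4OHT library it was -2.15 and 127 passed, 27 of them members.

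**Figure D1:**
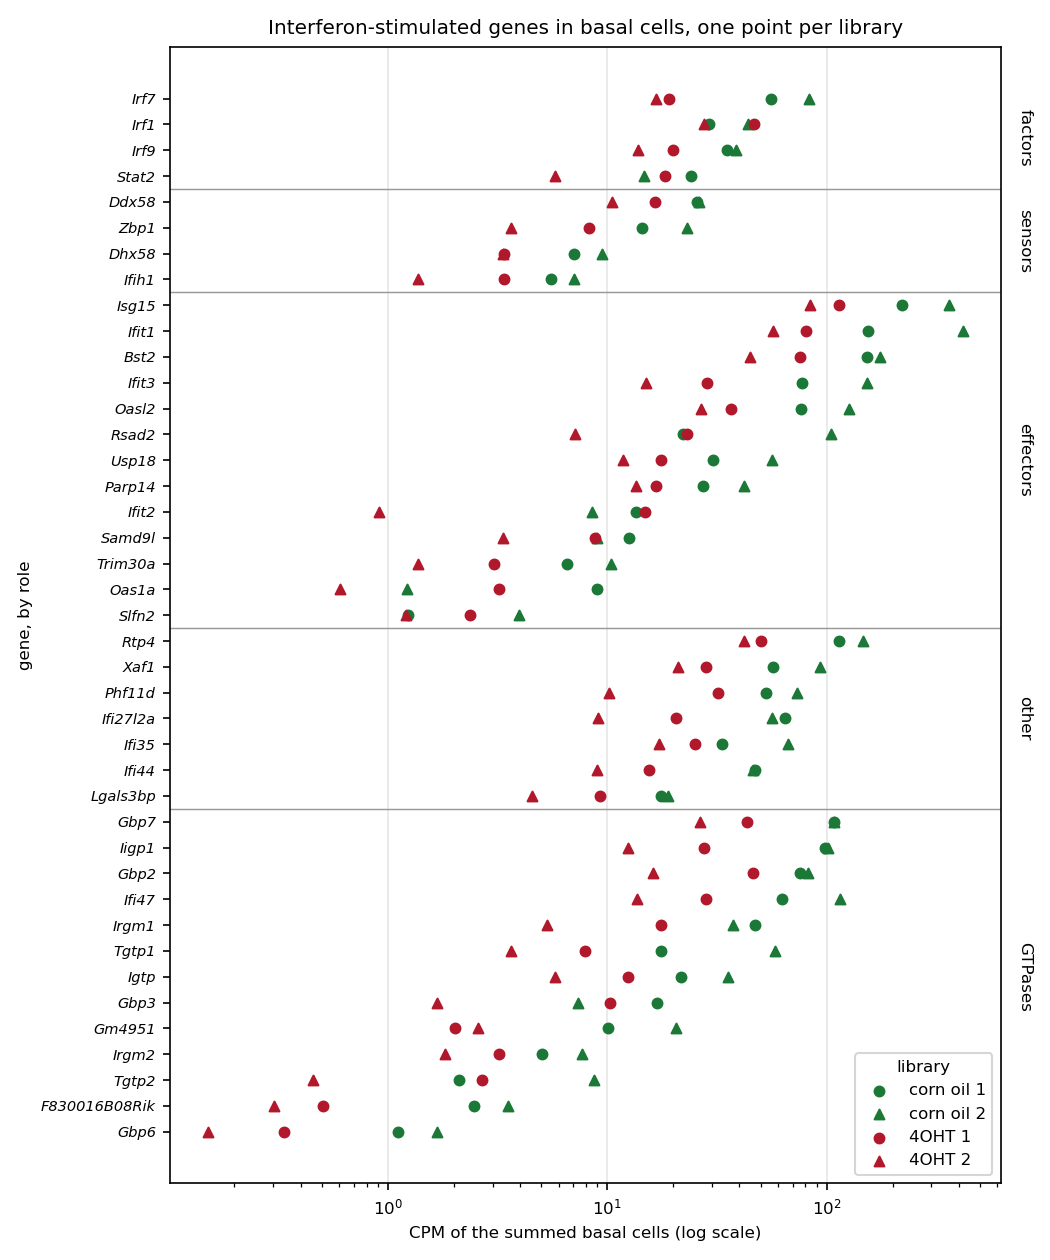
Level of each of the 41 genes in basal cells, in CPM on a log axis, with 1 mark per library (circles for libraries numbered 1, triangles for those numbered 2; green for corn oil, red for 4OHT) and the genes grouped by role. The red marks lie left of both green marks for Irf7, Isg15, Ifit1, Iigp1 and Gbp7, while for Irf1 the 2 groups interleave between 27.5 and 46.5 CPM.

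Among the signalling and transcription factors, Irf7, the factor that amplifies interferon production, was at 55.5 and 83.4 CPM after corn oil and at 19.2 and 16.7 CPM in the 4OHT libraries. Irf9, the DNA-binding partner of STAT2, was at 35.0 and 38.5 CPM against 20.04 and 13.8 CPM. In both genes the groups were apart. Stat2 was at 24.0 and 14.7 CPM after corn oil and at 18.4 and 5.77 CPM in the 4OHT libraries, which overlapped. Irf1, which interferon gamma induces through its GAS, was at 29.0 and 43.6 CPM after corn oil and at 46.5 and 27.5 CPM in the 4OHT libraries. Irf1 was the 1 member of the 40 whose difference was not below 0, at 0.04 on the log2 scale (SE 0.34), whereas that of Irf7 was -1.92 (SE 0.31).

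All 4 sensors lay lower in both 4OHT libraries. Ddx58, which encodes the RNA sensor RIG-I, was at 25.7 and 26.3 CPM after corn oil and at 16.5 and 10.5 CPM in the 4OHT libraries. Zbp1, a sensor of left-handed nucleic acid, was at 14.3 and 23.1 CPM against 8.25 and 3.64 CPM. The remaining sensors were scarcer. Ifih1, which encodes MDA5, a sensor of long double-stranded RNA, was at 5.56 and 7.04 CPM against 3.37 and 1.37 CPM, and Dhx58, a relative of both that modulates them, at 7.04 and 9.48 CPM against 3.37 and 3.34 CPM. The median difference of the 4 sensors was -1.32 on the log2 scale and that of the 4 factors -0.88.

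The antiviral effectors include the most abundant members. Isg15, a ubiquitin-like protein that is joined to other proteins, was at 221 and 363 CPM in basal cells after corn oil and at 114 and 83.6 CPM in the 4OHT libraries. Ifit1, which binds viral RNA that lacks the cell's own cap methylation, was at 154 and 418 CPM against 80.3 and 56.9 CPM. Ifit3, its partner, was at 77.0 and 153 CPM against 28.5 and 15.03 CPM, a corn oil mean 5.28 times that of the 4OHT libraries. For Ifit1 the same ratio was 4.17 and for Isg15 it was 2.95. Bst2, or tetherin, which holds budding virus at the cell surface, was at 152 and 175 CPM after corn oil and at 75.3 and 44.8 CPM in the 4OHT libraries. Oasl2, a relative of the oligoadenylate synthetases, was at 76.6 and 127 CPM against 36.7 and 26.9 CPM. In none of these 5 genes did the groups overlap. Rsad2, or viperin, behaved otherwise: its 104 CPM in the second corn oil library stood alone, and the remaining values of 22.1 CPM after corn oil and of 23.1 and 7.13 CPM in the 4OHT libraries overlapped.

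Usp18, which removes ISG15 and dampens the receptor, was at 30.4 and 56.3 CPM after corn oil and at 17.5 and 11.8 CPM in the 4OHT libraries, and Parp14 at 27.2 and 42.2 CPM against 16.7 and 13.5 CPM. Trim30a lay lower in both 4OHT libraries too, at 3.03 and 1.37 CPM against 6.55 and 10.4 CPM, and so did Samd9l, at 8.76 and 3.34 CPM against 12.6 and 9.02 CPM. In Ifit2, Oas1a and Slfn2 the groups overlapped. Ifit2 was at 13.6 and 8.56 CPM after corn oil and at 14.8 and 0.911 CPM in the 4OHT libraries, so that the libraries numbered 1 were both above those numbered 2. Oas1a had the same order, at 9.02 and 1.22 CPM against 3.20 and 0.607 CPM. In all, 9 of the 13 effectors had both 4OHT libraries below both corn oil libraries, and their median difference was -1.54 on the log2 scale.

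All 7 remaining type I induced genes had their groups apart in basal cells, with a median difference of -1.58. Rtp4, a chaperone that also restrains viruses, was at 114 and 146 CPM after corn oil and at 50.2 and 42.2 CPM in the 4OHT libraries. Xaf1, which antagonises an inhibitor of apoptosis, was at 57.0 and 92.8 CPM against 28.3 and 20.9 CPM. Ifi27l2a was at 64.4 and 56.4 CPM against 20.5 and 9.11 CPM, and Ifi44 at 47.0 and 46.2 CPM against 15.5 and 8.96 CPM, so their corn oil libraries lay close together. Phf11d was at 53.0 and 73.3 CPM against 31.8 and 10.2 CPM, and Ifi35 at 33.5 and 67.0 CPM against 25.1 and 17.3 CPM. Lgals3bp was the scarcest of the 7, at 17.5 and 19.0 CPM after corn oil and at 9.26 and 4.55 CPM in the 4OHT libraries.

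The GTPases had the largest differences. Iigp1, an immunity-related GTPase that loads onto parasite vacuoles, was at 97.9 and 101 CPM after corn oil and at 27.6 and 12.4 CPM in the 4OHT libraries, a log2 difference of -2.30 (SE 0.35). Ifi47 was at 62.6 and 116 CPM against 28.1 and 13.7 CPM. Tgtp1 was at 17.7 and 58.3 CPM against 7.92 and 3.64 CPM, and Gm4951, a neighbour and relative of Iigp1, at 10.1 and 20.5 CPM against 2.02 and 2.58 CPM. The log2 differences of Tgtp1 and Gm4951 were -2.72 (SE 0.65) and -2.68 (SE 0.50), the lowest among the members when F830016B08Rik is left aside. F830016B08Rik was scarce, at 2.47 and 3.52 CPM against 0.505 and 0.304 CPM. It passed the filter on low counts only through the corn oil libraries, so no size of difference is given for it. Because Tgtp1 and Tgtp2, and Gm4951 and F830016B08Rik, belong to families of close copies, reads could have been split between such copies in the authors' counting.

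The regulators of the family, which keep the effector GTPases off the cell's own membranes, followed the same order. Irgm1 was at 47.2 and 37.5 CPM in basal cells after corn oil and at 17.5 and 5.31 CPM in the 4OHT libraries. Igtp was at 21.7 and 35.3 CPM against 12.5 and 5.77 CPM, and Irgm2 at 5.07 and 7.65 CPM against 3.20 and 1.82 CPM. The gene models of Igtp (chr11:58199556-58207591) and Irgm2 (chr11:58199618-58222782) overlap on GRCm38, so reads from one could be assigned to the other. Among the guanylate-binding proteins, which coat bacteria and vacuoles, Gbp7 was at 108 and 108 CPM against 43.3 and 26.4 CPM, and Gbp2 at 75.6 and 82.4 CPM against 46.2 and 16.1 CPM. Gbp3 overlapped between groups, at 16.8 and 7.34 CPM against 10.3 and 1.67 CPM, as did Tgtp2, at 2.10 and 8.72 CPM against 2.69 and 0.455 CPM. Gbp6 had 9 and 11 UMIs after corn oil and 2 and 1 in the 4OHT libraries and was too scarce to be tested. Over the 12 GTPases tested the median difference was -1.84, against -1.44 for the 28 type I induced genes.

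**Figure D2:**
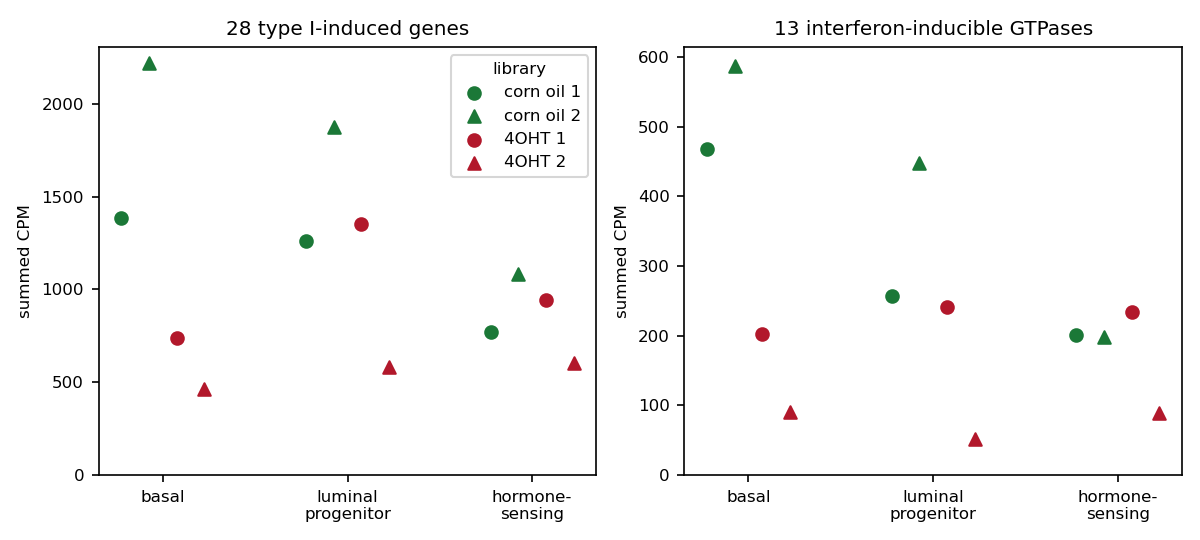
Summed level of the 28 type I induced genes and of the 13 GTPases in each library, in CPM, by cell class (circles for libraries numbered 1, triangles for those numbered 2; green for corn oil, red for 4OHT). In basal cells the red marks, at 741 and 463 CPM for the type I genes, lie below both green marks. In luminal progenitor cells the colours interleave for the type I genes but not for the GTPases, where the red marks are at 241 and 51.5 CPM, and in hormone-sensing cells they interleave for both.

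Summed luminal markers in basal cells differed between the groups. The 9 luminal progenitor markers summed to 1313 and 1523 CPM in basal cells after corn oil and to 1719 and 1945 CPM in the 4OHT libraries, while the 8 basal markers overlapped between groups (12259 and 17343 CPM against 13861 and 17738 CPM). Both sums include the genes that cut the classes. Luminal progenitor markers outside the sorting did not follow that order. Elf5 was at 1.36 and 1.22 CPM against 1.35 and 2.43 CPM, Aldh1a3 at 5.19 and 4.13 CPM against 2.02 and 4.10 CPM, and Kit at 0.306 CPM or less. Under a stricter keratin gate the type I sum was 1145 and 2427 CPM against 318 and 433 CPM, and the members' median difference was -2.27. Basal cells that failed that gate had 1597 and 1903 CPM of type I genes after corn oil and 1010 and 493 CPM in the 4OHT libraries, so they lay above the cells that passed it in 3 libraries and below them in the second corn oil library. The 4 leukocyte markers summed to 1 and 9 UMIs in basal cells after corn oil and to 6 and 1 UMIs in the 4OHT libraries, with Ptprc at 0 in all 4. In basal cells without any leukocyte UMI the type I sum was 1398 and 2233 CPM against 732 and 471 CPM. The part of luminal RNA in basal barcodes in these differences was not tested, and no doublet caller was run.

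In luminal progenitor cells the groups overlapped in the type I sum and were apart in the GTPase sum. Type I genes summed to 1261 and 1875 CPM after corn oil and to 1355 and 580 CPM in the 4OHT libraries. Between the libraries numbered 1 the corn oil level was 0.931 times the 4OHT level, and between those numbered 2 it was 3.23 times. The GTPases summed to 257 and 448 CPM against 241 and 51.5 CPM. Both 4OHT libraries lay below both corn oil libraries in 16 of the 39 members tested, against 17.5% of all 10120 genes, and the members' median was -0.63. It was -0.57 for type I genes (9 of 28 apart) and -1.42 for GTPases (7 of 11). In no member were both 4OHT libraries the higher, as they were in 7.33% of all genes. No gene passed in edgeR's quasi-likelihood test with Benjamini-Hochberg adjustment (0.0%). At an unadjusted p under 0.05 there were 166 genes, 80 of them lower (0.791% of those tested) and 7 of these members, and DESeq2 called 1 gene, not a member. Which libraries were in the comparison mattered: the members' median was -1.61 without the first 4OHT library and -0.22 without the second.

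By gene, progenitor cells showed both patterns. Irf7 was apart by group, at 72.4 and 81.9 CPM after corn oil and 43.6 and 28.3 CPM in the 4OHT libraries. Isg15, at 138 and 271 CPM against 174 and 76.5 CPM, overlapped, and so did Ifit1, at 96.2 and 194 CPM against 149 and 35.9 CPM. Among the members, Tgtp1 and Igtp had log2 differences of -2.98 and -2.12, of which the first rests on few UMIs in the second 4OHT library. Only the fitted difference of Tgtp2 was lower. Tgtp2 passed the filter on low counts only through the corn oil libraries, so no size is given for it. Igtp was at 14.04 and 49.9 CPM after corn oil and at 9.05 and 4.51 CPM in the 4OHT libraries, and Tgtp1 at 5.92 and 13.9 CPM against 2.02 and 0.161 CPM. Tgtp2 had 17 and 24 UMIs after corn oil and 3 and 1 in the 4OHT libraries. Iigp1 was at 49.5 and 68.6 CPM against 37.0 and 5.15 CPM. Gm4951, on chromosome 18, came next with a log2 difference of -1.89 and was at 5.37 and 28.7 CPM against 4.88 and 3.54 CPM.

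Whether the 4OHT difference was unequal between basal and luminal progenitor cells was tested with the class-by-treatment term. None of 11434 genes passed (0.0%) in edgeR's quasi-likelihood test with Benjamini-Hochberg adjustment, and 429 had an unadjusted p under 0.05. The members' median of this term was -0.84 on the log2 scale, meaning more negative in basal cells, against -0.02 over all genes. It was -0.87 for the 28 type I genes and -0.51 for the 12 GTPases tested. By these fits a difference between the 2 classes in their 4OHT contrast was not shown for any single member.

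Hormone-sensing luminal cells had the lowest sums of the 3 classes after corn oil but not in the 4OHT libraries. Their type I genes summed to 769 and 1082 CPM after corn oil and to 943 and 606 CPM in the 4OHT libraries. Their GTPases summed to 201 and 198 CPM against 234 and 89.0 CPM. The groups overlapped in both sums. Both 4OHT libraries lay below both corn oil libraries in 6 of the 30 members tested, against 13.5% of 7589 genes, and above them in 1, Ifi35, against 17.0%. At an unadjusted p under 0.05, 4 members were lower in the 4OHT libraries, as were 1.46% of all genes. The members' median difference was -0.48, and it ranged from -0.99 to -0.10 when 1 library was left out. In edgeR's quasi-likelihood test with Benjamini-Hochberg adjustment 1 of 7589 genes passed (0.0132%), and it was not a member. Hormone-sensing sums of the first 4OHT library also held 1346 CPM of fibroblast markers, against 243 and 53.5 CPM after corn oil and 238 CPM in the second 4OHT library, and their part in these levels was not tested.

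The classes themselves were then compared within libraries, a comparison that took no part in the choice of the genes. Counts were fitted with the library as a term, so each class was set against the others of the same mouse. Between hormone-sensing and luminal progenitor cells 26 of 40 members passed, 5 higher and 21 lower in hormone-sensing cells, in edgeR's quasi-likelihood test with Benjamini-Hochberg adjustment over 11135 genes. Of all genes 46.4% passed in this comparison (21.9% higher and 24.6% lower), so a difference between classes was common. The members' median was -0.63, against -0.02 over all genes. Of the 40, 30 were abundant enough in hormone-sensing cells for the 4OHT fit of that class alone, so calls of the others rest on low counts there. Between basal and hormone-sensing cells 27 of 40 passed, when 59.8% of all genes did. Between basal and progenitor cells 15 passed, when 56.1% did. Under the stricter gate 16 of 38 members passed between basal and hormone-sensing cells, when 5752 of 10073 genes did.

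**Figure D3:**
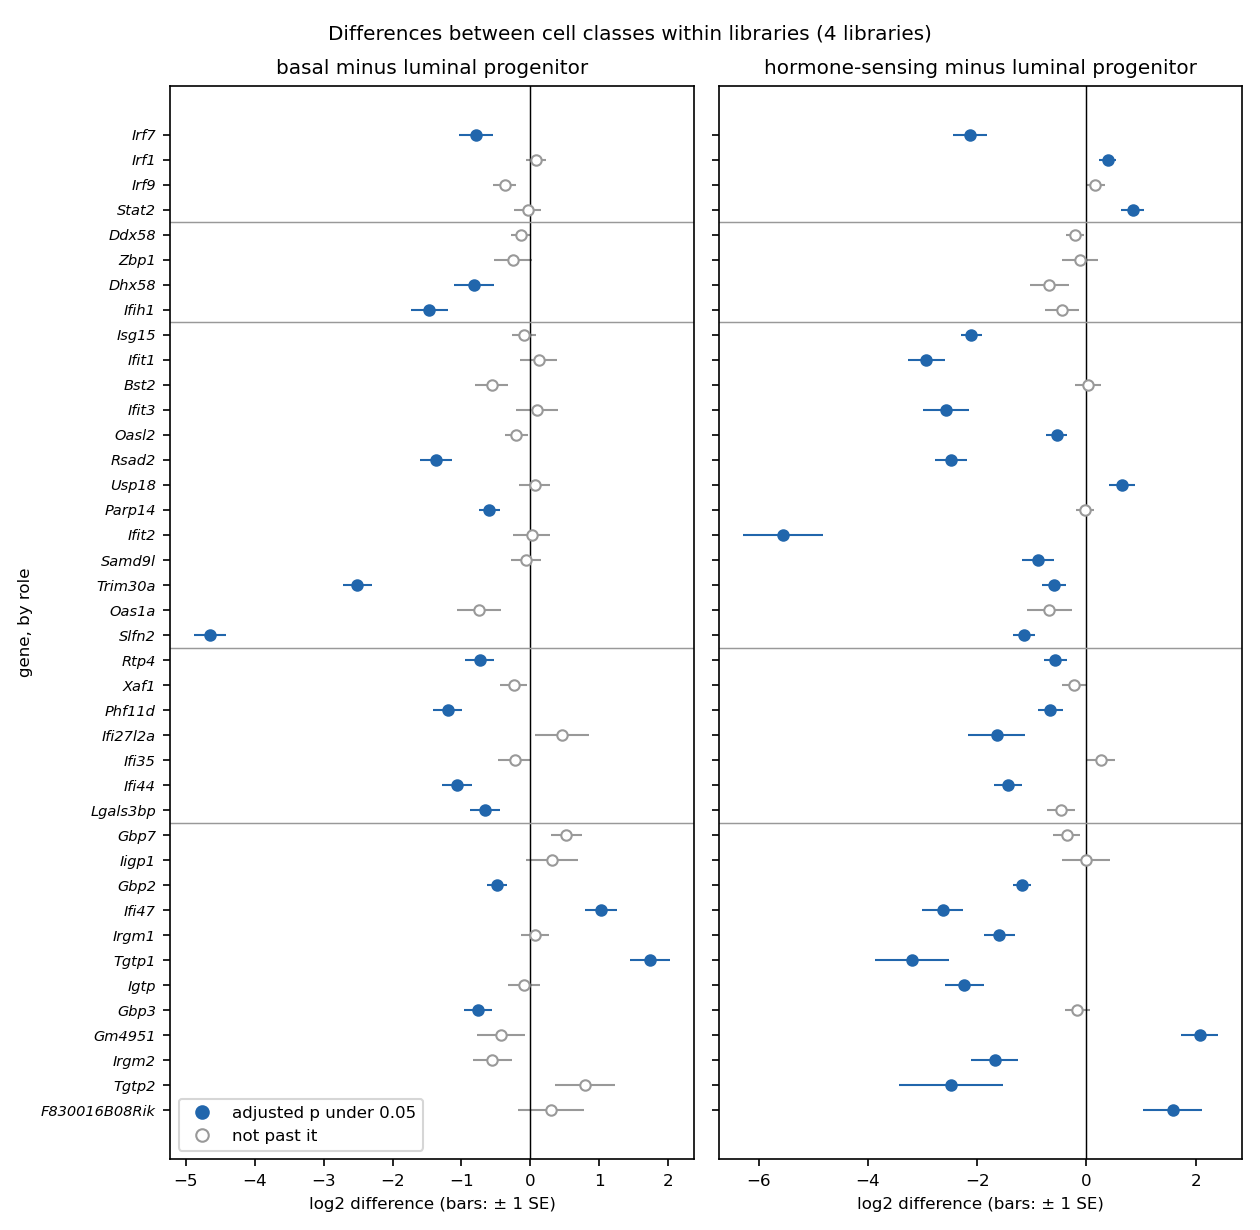
Log2 difference of each of the 40 members tested between basal and luminal progenitor cells (left) and between hormone-sensing and luminal progenitor cells (right), with bars of 1 standard error and filled blue marks where the adjusted p is under 0.05. Slfn2 at -4.65 and Tgtp1 at 1.74 mark the ends on the left. On the right Gm4951 at 2.07 marks the upper end, and the place of Ifit2, the lowest mark, depends on the prior count of the fit. Ifit2, Tgtp1 and Tgtp2 entered the right panel only through their counts in the other classes.

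The IFIT genes, which lie side by side on chromosome 19, were low in hormone-sensing cells. Ifit1 was at 7.71 and 40.6 CPM there after corn oil and at 13.5 and 11.4 CPM in the 4OHT libraries, and was lower than in progenitor cells by a log2 difference of -2.93 (SE 0.34, edgeR adjusted p = 3.18e-06), and in all 4 libraries. Ifit3, at 6.94 and 8.24 CPM against 8.37 and 7.87 CPM, was nearly level across the 4 libraries and differed by a log2 difference of -2.57 (SE 0.42, edgeR adjusted p = 9.97e-05). Ifit2 had 0 and 0 UMIs after corn oil and 0 and 1 in the 4OHT libraries. It entered the fit only through the other classes, and its fitted size depends on the prior count the fit adds. Ifit2 is therefore counted among the calls, but no size of difference is given for it here. Rsad2, at 10.02 and 30.6 CPM against 10.9 and 7.48 CPM, was lower by a log2 difference of -2.48 (SE 0.29, edgeR adjusted p = 3.29e-06). Isg15 was at 47.0 and 60.0 CPM against 46.4 and 23.2 CPM, with a difference of -2.11 (SE 0.20, edgeR adjusted p = 3.42e-07). Irf7 was lower as well, by a log2 difference of -2.13 (SE 0.31), at 6.94 and 21.2 CPM after corn oil and at 18.0 and 10.6 CPM in the 4OHT libraries.

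Of the 28 type I induced genes 14 were called lower in hormone-sensing than in progenitor cells and 3 higher, with a median difference of -0.58. Among the 13 effectors 9 were lower, with the scarce Ifit2 included, and 1 higher. Among the 7 other type I genes 4 were lower, and of the 4 sensors none passed in edgeR's test. Beside the 6 genes above, the lower calls ran from -1.65 for Ifi27l2a to -0.55 for Oasl2. Both of these calls were lost without the first corn oil library, and that of Oasl2 also without the first 4OHT library. The 3 higher genes were Stat2, Usp18 and Irf1. Stat2, at 26.2 and 26.5 CPM after corn oil and 46.4 and 12.6 CPM in the 4OHT libraries, was higher in hormone-sensing than in progenitor cells by 0.84 (SE 0.21, edgeR adjusted p = 0.00398). Usp18, at 35.5 and 66.5 CPM against 39.9 and 20.9 CPM, was higher by 0.65 (SE 0.24, edgeR adjusted p = 0.0369), and Irf1, at 40.1 and 48.2 CPM against 47.6 and 39.0 CPM, by 0.39 (SE 0.15, edgeR adjusted p = 0.0485). The calls of Usp18 and Irf1 were lost when any of 3 of the 4 libraries was left out, and that of Stat2 when the first 4OHT library was. Bst2 was at 129 and 136 CPM after corn oil and at 222 and 120 CPM in the 4OHT libraries, and its difference from progenitor cells of 0.03 (SE 0.24) did not pass.

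The GTPases are given here by chromosome, an order chosen after the values were known. All 6 of chromosome 11 were called lower in hormone-sensing than in progenitor cells in edgeR's quasi-likelihood test with Benjamini-Hochberg adjustment. Tgtp1 and Tgtp2 were so scarce in hormone-sensing cells that they entered the fit only through the other classes. Ifi47, Igtp and Irgm2 were also scarce there. In the 4OHT fit of hormone-sensing cells alone 6 of the 13 GTPases were tested, and these 3 were not among them, so their calls rest on low counts. Without Tgtp1 and Tgtp2, the log2 differences ran from -2.63 for Ifi47 to -1.59 for Irgm1. The 6 genes form 2 groups on GRCm38: Irgm1 (chr11:48861968-48871683), Tgtp1 (chr11:48985327-48994172), Tgtp2 (chr11:49057194-49064206) and Ifi47 (chr11:49076587-49096974), and then the overlapping pair Igtp and Irgm2. Ifi47 had 7 and 9 UMIs in hormone-sensing cells after corn oil and 9 and 1 in the 4OHT libraries, a difference of -2.63 (SE 0.37, adjusted p = 2.89e-05 in edgeR's test). Tgtp1 had 0 and 1 UMIs against 1 and 2, and Tgtp2 had 0 and 1 against 0 and 1, so no size of difference is given for them. The calls of Tgtp1 and Irgm2 were lost without the second corn oil library, and that of Tgtp2 without either corn oil library.

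Of the 3 members on chromosome 18, 2 were called higher in hormone-sensing cells. Gm4951 was at 38.5 and 53.5 CPM in hormone-sensing cells after corn oil and at 41.2 and 24.0 CPM in the 4OHT libraries, against 5.37 and 28.7 CPM and then 4.88 and 3.54 CPM in progenitor cells. It was higher by 2.07 on the log2 scale (SE 0.34, adjusted p = 0.00012 in edgeR's test), and kept that call with each library left out in turn. F830016B08Rik, at 3.08 and 4.71 CPM after corn oil and 5.15 and 1.97 CPM in the 4OHT libraries, was higher by 1.58 (SE 0.54, adjusted p = 0.0241 in edgeR's test), a call lost in 3 of the 4 fits that leave out a library. It was too scarce in hormone-sensing cells for the 4OHT fit of that class alone, so its call rests on low counts. Reads could also have been split between it and its close copy Gm4951. Iigp1, beside them, was at 34.7 and 22.4 CPM against 62.5 and 23.6 CPM and had a log2 difference from progenitor cells of -0.01 (SE 0.44, adjusted p = 0.987 in edgeR's test). Of the 3 guanylate-binding proteins of chromosome 3, Gbp2 was lower, by a log2 difference of -1.18 (SE 0.17), and Gbp7 and Gbp3, at -0.36 (SE 0.25) and -0.17 (SE 0.23), did not pass. The relation of direction to chromosome was not tested.

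Between basal and luminal progenitor cells fewer members passed. Of 40 members 15 passed, 2 higher and 13 lower in basal cells, when 56.1% of all 11135 genes passed (29.5% higher and 26.6% lower), in edgeR's quasi-likelihood test with Benjamini-Hochberg adjustment. The 2 that were higher were the chromosome 11 GTPases Tgtp1, by 1.74 (SE 0.29, adjusted p = 7.89e-05), and Ifi47, by 1.03 (SE 0.23, adjusted p = 0.00135), the latter lost under the stricter gate. Slfn2, a member of the Schlafen family known from lymphocyte quiescence, was at 1.24 and 3.98 CPM in basal cells after corn oil and 2.36 and 1.21 CPM in the 4OHT libraries, against 46.9 and 62.5 CPM and then 44.6 and 24.8 CPM in progenitor cells. Its difference was -4.65 (SE 0.23, adjusted p = 1.11e-10). Trim30a, at 24.8 and 43.0 CPM and then 22.97 and 8.21 CPM in progenitor cells, was lower in basal cells, by a log2 difference of -2.52 (SE 0.21, adjusted p = 3.99e-08). Ifih1 followed at -1.47 (SE 0.27, adjusted p = 0.000195), Rsad2 at -1.37 (SE 0.23, adjusted p = 8.75e-05) and Phf11d at -1.20 (SE 0.22, adjusted p = 0.000186). Trim30a and Phf11d belong to families with close copies.

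The scaling between classes bears on these counts. Library totals in place of TMM factors were a choice added after the data were seen. With them the basal minus progenitor differences of the listed genes moved up by a median of 0.27 on the log2 scale. The hormone-sensing minus progenitor differences moved up by a median of 0.25. The members called were then 4 higher and 6 lower in the first comparison, and 5 higher and 15 lower in the second. Slfn2, Trim30a, Ifih1, Rsad2, Phf11d, Tgtp1 and Ifi47 kept their calls between basal and progenitor cells, while Irf7, Gbp2, Gbp3, Dhx58, Lgals3bp, Parp14 and Rtp4 lost theirs. Without the library as a term, 3 of the 15 calls between basal and progenitor cells remained, those of Slfn2, Trim30a and Ifih1, and 10 of the 26 between hormone-sensing and progenitor cells. None of the members called in any class comparison changed sign under this or any other setting run.

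Set directly against hormone-sensing cells, basal cells had 16 members higher and 11 lower of 40, when 59.8% of all genes passed (32.4% higher and 27.3% lower), in edgeR's quasi-likelihood test with Benjamini-Hochberg adjustment. Ifit2, Tgtp1 and Tgtp2 were among the higher ones, and with at most 2 UMIs a library in hormone-sensing cells their fitted sizes depend on the prior count and are not given. The largest of the others were Ifi47, at 3.66 (SE 0.35, adjusted p = 2.29e-07), Ifit1, at 3.05 (SE 0.34, adjusted p = 9.04e-07), and Ifit3, at 2.67 (SE 0.41, adjusted p = 3.72e-05). Ifi47, like F830016B08Rik below, was also too scarce in hormone-sensing cells to be tested for 4OHT in that class alone. On the lower side were Slfn2, at a log2 difference of -3.50 (SE 0.26, adjusted p = 1.11e-08), Gm4951, at -2.50 (SE 0.35, adjusted p = 1.22e-05), Trim30a, at -1.92 (SE 0.24, adjusted p = 4.48e-06), F830016B08Rik, at -1.29 (SE 0.52, adjusted p = 0.0417), and Ifih1, at -1.02 (SE 0.33, adjusted p = 0.0141). Of these, Tgtp2 lost its call without the second corn oil library, F830016B08Rik and Ifih1 lost theirs without either 4OHT library, and F830016B08Rik also under the stricter gate.

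The members' UMIs were spread very unevenly over cells. To compare cells at equal depth, each cell was thinned to 2000 UMIs, which kept 1462 and 1750 basal cells after corn oil and 1310 and 1799 in the 4OHT libraries. Of these, 66.5% and 56.5% after corn oil and 69.1% and 78.4% in the 4OHT libraries had no type I UMI at all. At the other end, 13.95% and 18.7% after corn oil and 4.81% and 5.06% in the 4OHT libraries had 5 or more, here called type I-high cells. This is a range of a sum, not a cell type. In the first corn oil library 34 basal cells had 3 or 4 type I UMIs, 68 had 5 to 9 and 136 had 10 or more. In the second the same counts were 56, 88 and 239, in the first 4OHT library 42, 27 and 36, and in the second 29, 41 and 50, so that in both 4OHT libraries more cells lay next to the limit than well above it. The top 5% of basal cells held 51.2% and 45.2% of all type I UMIs after corn oil and 67.2% and 72.6% in the 4OHT libraries. Outside the type I-high cells the mean was 0.339 and 0.455 type I UMIs per basal cell after corn oil and 0.403 and 0.247 in the 4OHT libraries, which overlapped.

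**Figure D4:**
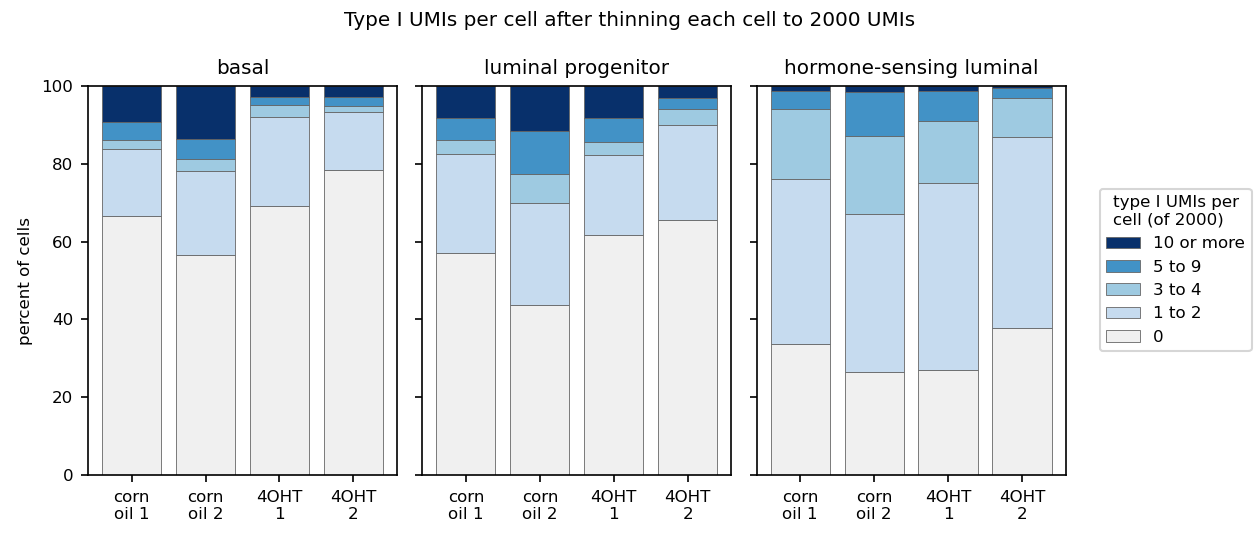
Percent of cells with 0, 1 to 2, 3 to 4, 5 to 9 and 10 or more type I UMIs after each cell was thinned to 2000 UMIs, as stacked bars from 0 to 100%, by class and library. Basal and luminal progenitor bars are mostly 0 with a block of 10 or more, while in hormone-sensing cells the 0 segment is between 26.4% and 37.8% and the block of 10 or more holds 2 to 5 cells a library.

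Luminal progenitor cells had the same shape, with 13.9% and 22.5% type I-high cells after corn oil and 14.5% and 5.85% in the 4OHT libraries. Hormone-sensing cells had another. Only 33.8% and 26.4% of them after corn oil and 27.1% and 37.8% in the 4OHT libraries had no type I UMI, and 5.96% and 12.9%, and then 8.90% and 3.21%, were type I-high. Cells with 10 or more numbered 2 and 5 after corn oil and 3 and 2 in the 4OHT libraries. Their top 5% of cells held between 22.3% and 27.6% of the type I UMIs, against 41.4% to 57.9% in progenitor cells. Hormone-sensing cells below the limit had 1.25 and 1.40 type I UMIs each after corn oil and 1.36 and 1.014 in the 4OHT libraries, which was above the means of basal cells in every library. A larger share of hormone-sensing than of basal cells thus had a type I UMI in all 4 libraries, while the summed CPM was lower after corn oil and higher in the 4OHT libraries, so no order of the classes is read from that share. No class was known to lack these genes, and the level of free RNA in the droplets could not be taken from one.

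The GTPases, which are not part of the type I sum, lay in the same cells. Type I-high basal cells had 5.09 and 5.52 GTPase UMIs each after corn oil and 5.10 and 2.59 in the 4OHT libraries, whereas basal cells with no type I UMI had 0.0329 and 0.0516, and 0.0586 and 0.0213. Of the UMIs of Iigp1 in the 4 basal samples of cells, 94.9% were in type I-high cells, and the shares for Tgtp1, Gm4951, Ifi47, Gbp7 and Gbp2 were 97.4%, 97.3%, 90.8%, 88.5% and 83.7%. These shares pool the libraries. In the first 4OHT library alone they were 89.7% for Iigp1 and 100% for Tgtp1 and Gm4951, which had 19 and 3 UMIs. Ifi47, Gbp7 and Gbp2 were at 78.3%, 71.9% and 62.5% there. In hormone-sensing cells the pooled shares were 11.3% for Iigp1, 23.8% for Gm4951, 26.8% for Gbp7 and 12.9% for Gbp2. GTPase means in this class were 1.33 and 1.02, and 1.10 and 0.571, in type I-high cells against 0.333 and 0.163, and 0.266 and 0.194, in those with none. Gm4951 and Iigp1 were therefore found mostly outside the type I-high cells in this class and nearly always inside them in basal cells. Being mostly outside was not particular to these genes, as it held for Gbp7 and Gbp2 too. Type I-high cells made up between 3.21% and 12.9% of hormone-sensing cells in a library.

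**Figure D5:**
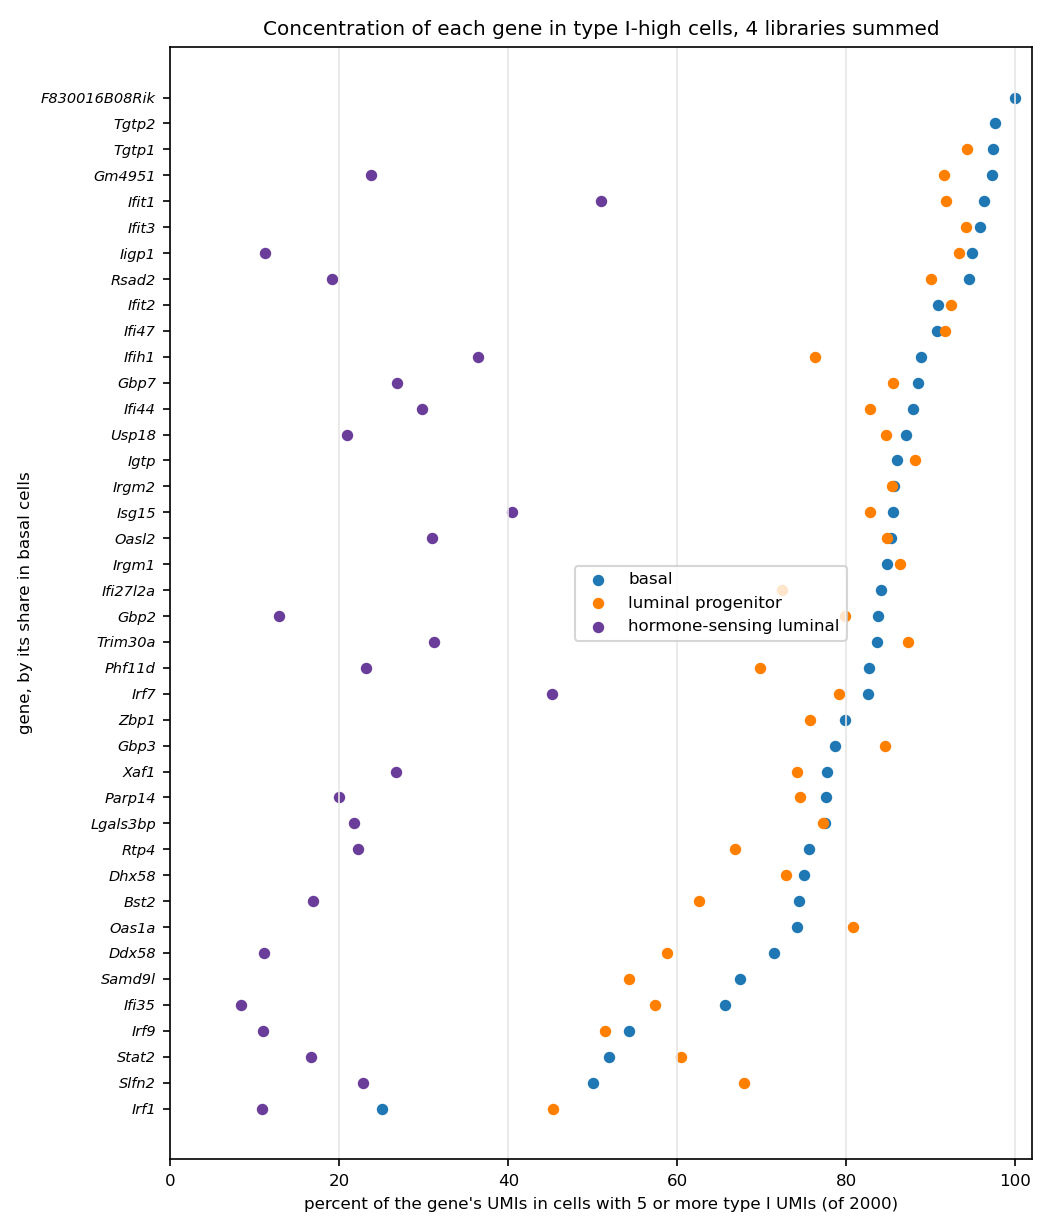
Percent of each gene's UMIs found in type I-high cells (5 or more type I UMIs of 2000), summed over the 4 libraries, by cell class, for genes with at least 20 UMIs after thinning. For a type I gene its own UMIs were left out of the type I sum. In basal cells Tgtp1 (97.4%) and Ifit1 (96.3%) stand at the high end and Irf1 (25.0%) at the low end; in hormone-sensing cells Iigp1 is at 11.3%.

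For each type I gene the share was taken with its own UMIs left out of the sum, so the limit of 5 was set on the other type I genes. Among the type I genes the order was wide. Ifit1 had 96.3% of its basal UMIs in type I-high cells, Ifit3 95.8% and Rsad2 94.6%. Irf7 had 82.6% and Isg15 85.5%. At the low end stood Irf1 with 25.0%, Slfn2 with 50.0%, Stat2 with 52.0% and Irf9 with 54.3%. These shares pool the 4 libraries, so they also depend on how many of a gene's UMIs each library gave. By library, Irf1 had 40.5% and 40.4% after corn oil and 12.5% in the first 4OHT library, where type I-high cells were fewer. Type I-high basal cells were deeper before thinning than cells with none, at a median of 6282.5 and 3888 UMIs after corn oil and 5427 and 3449 in the 4OHT libraries against 5033.5 and 3113, and 3945 and 3010. Their mitochondrial share was higher as well, at 2.38% and 2.36%, and 2.49% and 3.11%, against 1.74% and 1.999%, and 1.39% and 2.05%. Their luminal keratins were lower, at 7.83 and 7.90, and 13.9 and 10.7, of 10000 UMIs against 12.9 and 15.3, and 16.2 and 18.9. Leukocyte markers were found in 0.0% and 2.45%, and 4.76% and 1.10%, of type I-high basal cells, and in 1.44% and 2.53%, and 3.09% and 2.91%, of those with none. The part of depth and mitochondrial share in these levels was not tested.

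Interferon itself was almost absent from the counts. Of 20 ligand genes 3 had any UMI in the 3 epithelial classes. Ifnb1, which encodes interferon beta, was found only in luminal progenitor cells, with 0 and 30 UMIs after corn oil and 3 and 19 in the 4OHT libraries. The 30 came from 3 cells, 1 of which had 27, and the 19 from a single cell. Those cells carried 6987 CPM of type I genes in the second corn oil library, 4943 CPM in the first 4OHT library and 9424 CPM in the second, against 1859, 1350 and 568 CPM in the other progenitor cells. In basal cells 0 of 7028 had an Ifnb1 UMI, which allows a share of up to 0.0427%, and in hormone-sensing cells 0 of 1168, which allows up to 0.257%. These limits cover counting error only and concern cells with a UMI, not cells making the RNA. Ifnk, a keratinocyte interferon, had 21 and 13 UMIs in progenitor cells after corn oil and 33 and 6 in the 4OHT libraries, 15 and 4 against 3 and 4 in basal cells, and none in hormone-sensing cells. Ifnz had at most 2 UMIs in any class and library.

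The receptors were present in every class, and their levels in basal cells did not follow the members'. Ifnar1 was at 19.3 and 10.9 CPM in basal cells after corn oil and at 18.0 and 10.8 CPM in the 4OHT libraries, and Ifnar2 at 33.98 and 34.9 CPM against 44.0 and 34.001 CPM. Ifngr1 overlapped too, at 41.5 and 34.6 CPM against 57.9 and 35.2 CPM, whereas Ifngr2 was at 22.5 and 22.8 CPM against 19.4 and 14.4 CPM. The subunits of the type III receptor were scarce, Ifnlr1 at 4.45 and 3.52 CPM against 5.05 and 2.13 CPM and Il10rb at 6.43 and 8.87 CPM against 11.8 and 13.5 CPM. Of 10 genes for receptors, kinases and STATs tested in basal cells, 3 had both 4OHT libraries lower, against 17.6% of all genes, and 1 had both higher, against 13.0%, with a median difference of -0.11. Jak1 was at 63.6 and 58.3 CPM against 56.6 and 47.8 CPM, and Jak2, Tyk2 and Stat3 were at 10.9 and 8.87, 1.11 and 1.07, and 201 and 190 CPM after corn oil against 10.1 and 6.07, 1.35 and 1.37, and 194 and 166 CPM.

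Several receptor genes passed between classes, where a difference was common among all genes. Ifnar1 was higher in basal than in progenitor cells by 0.73 (SE 0.19, adjusted p = 0.0042), while its partner Ifnar2, at 85.0 and 52.7 CPM in progenitor cells after corn oil and 72.0 and 54.4 CPM in the 4OHT libraries, was lower in basal cells, by a log2 difference of -1.10 (SE 0.15, adjusted p = 1.32e-05), in edgeR's quasi-likelihood test with Benjamini-Hochberg adjustment. In hormone-sensing cells Ifnar2 was lower than in progenitor cells, by a log2 difference of -1.08 (SE 0.17, adjusted p = 6.19e-05) and Ifngr1, at -1.70 (SE 0.19, adjusted p = 1.74e-06). Ifngr1 was at 16.96 and 19.999 CPM there after corn oil and at 36.1 and 15.4 CPM in the 4OHT libraries, against 52.7 and 78.5 CPM and then 65.8 and 41.7 CPM in progenitor cells. Ifngr2 and Jak2 were higher in hormone-sensing cells, by 0.49 (SE 0.17, adjusted p = 0.0274) and 0.79 (SE 0.18, adjusted p = 0.00209). Of the 11 genes of this list 7 passed between hormone-sensing and progenitor cells, 5 lower and 2 higher, when 46.4% of all genes did, and 9 between basal and progenitor cells, 8 lower and 1 higher, when 56.1% did.

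Interferon-stimulated genes outside the 41 were read as a second list, also drawn up with earlier results known. In basal cells 35 of the 46 tested had both 4OHT libraries below both corn oil libraries, against 17.6% of all genes, with a median difference of -0.84, and none passed in edgeR's test. The most abundant was Ifitm3, a membrane protein that blocks viral entry, at 2934 and 3748 CPM after corn oil and 2884 and 2515 CPM in the 4OHT libraries. Ifitm2 was at 807 and 973 CPM against 496 and 468 CPM, and Ly6e at 997 and 1285 CPM against 664 and 815 CPM. Ifi27 was at 168 and 178 CPM against 119 and 128 CPM, and Isg20 at 50.8 and 79.5 CPM against 36.9 and 50.5 CPM, while Shisa5 overlapped at 96.1 and 158 CPM against 92.1 and 103 CPM. In progenitor cells 12 of 51 were apart in that direction, against 17.5%, with a median of -0.36, and in hormone-sensing cells 6 of 29, against 13.5%, with a median of -0.25. Sensing adaptors and other interferon regulatory factors had a median of -0.02 in basal cells (2 of 10 lower in both 4OHT libraries), and the 5 feedback inhibitors -0.20 (1 of 5), both near the 17.6% of all genes.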

How the data were processed

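The authors deposited unnormalised counts of UMIs for every gene in every cell, made with Cell Ranger 3.0.1 on mm10, per the submitters' processing notes. Strand, the use of introns and cell calling are not given in the sources used here. Cells of at least 1000 UMIs were kept and sorted by summed UMIs: basal where Krt5, Krt14, Krt17 and Acta2 reached 5 and exceeded 3 times Krt8, Krt18 and Krt19, luminal where the reverse held, and hormone-sensing where Ly6d, Fxyd2 and Gpx3 reached 3 and exceeded Wfdc18, Csn3 and Ltf. Counts were summed per library and class, giving CPM here, and tested with edgeR 4.0.16 in R 4.3.3 (TMM factors, filterByExpr, quasi-likelihood F-test, Benjamini-Hochberg adjustment over all genes, threshold 0.05). SE is the log2 difference divided by the square root of F. Class differences had the library as a term; the 4OHT contrast had none. DESeq2 1.42.0, other filters, gates and scalings, a replicate block and left-out libraries were alternatives. The edgeR fits of the 4OHT contrast in basal cells, of basal minus progenitor cells and of the class-by-treatment term were tested on simulated counts. The other fits and steps were not. The mouse is the replicate, with 2 a group. Cells were thinned with numpy 2.4.6 (Python 3.11.15), and no doublet caller was run.

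The members and the lists were chosen with earlier results of these data known. All 41 members are given; values in every library are printed for the members with the highest mean basal CPM in each role (up to 6, and all factors and sensors), for GTPases of at least 100 basal UMIs, and for the 5 largest class differences in each direction that passed. Promoters were read from RefSeq (GRCm38.p6) and gene positions from an annotation of GRCm38. Counting error is the only error the limits for counts of 0 cover. The values of 1 pathway gene that is no member are not reported here, although it is counted in its list.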

Additional observations from a re-analysis of the deposited data

Results flagged for a closer look

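Ifi35 stood apart from the other members in hormone-sensing luminal cells, where both 4OHT libraries, at 45.7 and 56.3 CPM, lay above both corn oil libraries, at 37.0 and 40.0 CPM, with a 4OHT mean of 51.0 CPM. In basal cells the order was the opposite, at 33.5 and 67.0 CPM after corn oil and 25.1 and 17.3 CPM in the 4OHT libraries. Tgtp1 met the same condition in hormone-sensing cells with a 4OHT mean of 0.716 CPM, which came from 1 and 2 UMIs against 0 and 1 after corn oil and lies at the limit of the counts. The difference between the classes in these contrasts was not tested for either gene.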

How the results depend on the processing

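The number of genes past the threshold for 4OHT against corn oil depended on the setting. In basal cells it was 0, against 38 with DESeq2, 93 without a filter on low counts and 17 to 127 with 1 library left out (59 without corn oil 1, 29 without corn oil 2, 127 without 4OHT 1 and 17 without 4OHT 2, where the lone sample is assumed to vary like the other group). In luminal progenitor cells it was 0, against 1, 39 and 39 to 64 under the same settings, and in hormone-sensing cells 1, against 7, 59 and 4 to 80, and 0 with a mean of at least 20 CPM or with cells of at least 2000 UMIs. Fits with a replicate block, in which libraries of the same number are paired, called 167 genes in basal cells (25 of them members), 9 in progenitor cells and 3 in hormone-sensing cells. Same-numbered libraries deviated together (r = 0.565 over 10788 genes, the same for both numbers by construction), but with 2 pairs they share only a number. The class-by-treatment term called 0 genes, 55 without the filter and 0 to 64 with 1 library left out.

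Members called between basal and progenitor cells went from 15 to 3 without the library term and 6 under the stricter gate. Between hormone-sensing and progenitor cells they went from 26 to 10 without the library term and 16 to 23 with 1 library left out, and between basal and hormone-sensing cells from 27 to 14 and, under the stricter gate, 16. The mean type I level in basal cells of the 4OHT libraries was 602 CPM, and 375 CPM under the stricter gate. Thinning to 1000 in place of 2000 UMIs lowered the mean percent of cells with a type I UMI, by construction, to 28.7% after corn oil and 16.9% in the 4OHT libraries in basal cells, 36.8% and 26.9% in progenitor cells and 53.9% and 44.0% in hormone-sensing cells. The cause of the other changes was not tested.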

Other observations

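Genes of the class I presentation pathway, which interferon also induces, were mostly higher in hormone-sensing cells than in either of the other classes. Of 13 tested, 8 were higher in hormone-sensing than in luminal progenitor cells and 0 lower, against 21.9% and 24.6% of all genes, with a median difference of 0.73 on the log2 scale, and 12 were lower in basal than in hormone-sensing cells, against 27.3% of all genes, with a median of -1.05, in edgeR's quasi-likelihood test with Benjamini-Hochberg adjustment. B2m, the light chain of class I molecules, was at 861 and 924 CPM in basal cells after corn oil and at 659 and 473 CPM in the 4OHT libraries, and was higher in hormone-sensing than in progenitor cells by 1.05 (SE 0.14, adjusted p = 1.82e-05). In basal cells 10 of 13 had both 4OHT libraries below both corn oil libraries, against 17.6% of all genes, with a median of -0.67. In progenitor cells 6 of 13 did, against 17.5%, with a median of -0.10, and in hormone-sensing cells 1 of 13, against 13.5%, with a median of -0.03.

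Cells that passed a gate for a type outside the epithelium were few, and the unassigned cells are not among them. Fibroblast-gated cells numbered 2 and 81 after corn oil and 31 and 10 in the 4OHT libraries, and held 1417 and 9348 CPM of type I induced genes after corn oil and 8081 and 8574 CPM in the 4OHT libraries. Endothelial-gated cells numbered 6 and 74, and 44 and 134, with 655 and 8299 CPM, and 1484 and 4059 CPM.

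Members were ordered by the library number no more often than all genes tested. In basal cells both libraries numbered 1 lay above both numbered 2 for 4 of 40 members (Gbp3, Ifit2, Oas1a and Stat2), against 37.3% of all genes tested, and in no member was the order the opposite, against 16.1%. In progenitor cells it was 9 of 39, against 24.7%, and in hormone-sensing cells 7 of 30, against 27.9%. The labels do not say what the number stands for.

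The gene that passed in hormone-sensing cells between the groups, named here after its values were seen, was Ctsr, a cathepsin gene, with 2 and 6 UMIs after corn oil and 91 and 130 in the 4OHT libraries, a log2 difference of 4.29 (adjusted p = 0.0383 in edgeR's quasi-likelihood test with Benjamini-Hochberg adjustment).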
